A study of Mus musculus with 4 samples.

Results

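The smooth muscle actin gene and 9 further genes of the contractile apparatus were followed in mouse cardiac fibroblasts on the way to induced cardiomyocytes. The set was given by name as smooth muscle actin, actin-binding and myocardin family genes, and all 10 were among the 16383 genes of the count table. It holds Acta2, Cald1, Lmod1 and Smtn of the actin filament, Pdlim7, Csrp1, Synpo2 and Vcl of stress fibres and adhesions, and the transcriptional coactivator genes Myocd and Mkl1. All 10 also passed the filter on low counts and entered the test of 10736 genes. The libraries came from primary adult heart fibroblasts of wild-type mice aged 3 months, and every culture carried the factors MGT, which are Mef2c, Gata4 and Tbx5. The control group received in addition the non-targeting hairpin shNT, and the other group the hairpin shNr4a3 against the nuclear receptor gene Nr4a3. Each group had 2 libraries, collected at day 7. The study's stated purpose was to find how knockdown of Nr4a3 improves reprogramming. The sources used here name no vector or promoter for the factors and hairpins.

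Activated fibroblasts, called myofibroblasts, build stress fibres, which are bundles of actin and myosin anchored to the matrix at focal adhesions, and the incorporation of smooth muscle alpha-actin into them is their classical mark. Many genes of this apparatus are switched on by serum response factor (SRF), which binds a short element called the CArG box. SRF works there with myocardin or with the myocardin-related factors, which are held inactive by monomeric actin and released when actin polymerises. In the heart the same genes are used by smooth muscle cells, pericytes and immature cardiomyocytes.

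Summed over the table, a library had between 28220440 and 30976450 counts, and 1 count equalled 0.0326 to 0.035 CPM (counts scaled to a common total by the TMM method, which sets the library totals against each other through genes of typical ratio). Nr4a3 itself had 356 and 353 counts under shNT and 18 and 32 under shNr4a3 (log2 fold change -3.86, edgeR adjusted p = 2.65e-06). Mef2c, Gata4 and Tbx5 fell by 0.58, 0.39 and 0.39 on the log2 scale, and delivered and endogenous transcripts of these genes share 1 count. Without shNT replicate 1 Tbx5 no longer passed (-0.29, edgeR adjusted p = 0.0896, in a range of 0.000374 to 0.0896 over all fits tried). The labelled cell type was matched by abundant fibroblast transcripts, with all 12 markers in the table detected and a summed level of 11871 to 13313 CPM per library. Of that sum, Postn gave 388 and 470 CPM under shNT and 5019 and 4863 CPM under shNr4a3. Under shNr4a3, 7 of the 12 markers fell and 3 rose. Whether replicate libraries stem from separate cultures or animals is not stated in the labels, so p-values measure only the spread between these libraries, which may be technical.

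The contractile genes did not move as a block. Of the 10, 6 rose under shNr4a3 (Acta2, Lmod1, Myocd, Mkl1, Pdlim7 and Synpo2), 3 fell (Cald1, Smtn and Csrp1) and Vcl did not pass (edgeR quasi-likelihood test, Benjamini-Hochberg adjusted p under 0.05 over all tested genes). The background was high: 60.2% of all tested genes were called, 30.7% as higher and 29.4% as lower. In the other fits tried, that share was 60.7% with DESeq2 size factors, 60.3% with library size only, 60.4% with upper quartile scaling, 48.2% with no filter, 56.5% with DESeq2, 60.8% with limma-voom and 62.0% with a replicate block. It was 48.6% and 47.6% without shNT replicate 1 or 2, and 57.7% and 57.0% without shNr4a3 replicate 1 or 2. For 9 of the 10 genes the CPM ranges of shNT and shNr4a3 lay apart, against 81.0% of all tested genes. The median log2 fold change was 0.63 for the 10 genes and 0.02 over all tested genes, and the median size without sign was 0.73 against 0.56. Synpo2, Acta2 and Myocd were the genes called with a change over 1 on the log2 scale, as were 26.3% of all tested genes in either direction. In these bulk libraries, fewer cells that express a gene and less RNA per cell cannot be told apart.

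**Figure D1:**
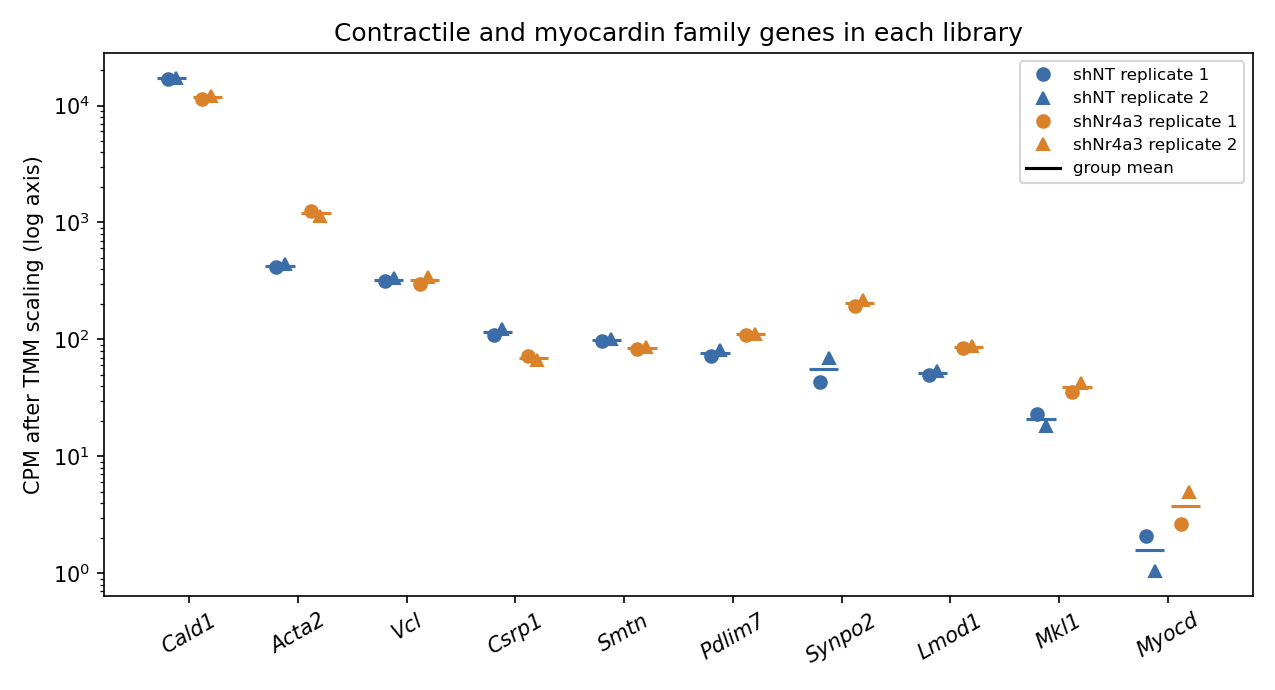
CPM after TMM scaling (log axis) of the 10 genes in each of the 4 libraries, with circles for replicate 1, triangles for replicate 2 and lines for group means. The groups lie apart for 9 genes and overlap for Vcl, and the distance between replicates is widest for Myocd in both groups and for Synpo2 in shNT.

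Acta2 encodes smooth muscle alpha-actin, the actin isoform that marks myofibroblasts and smooth muscle. It lies on chromosome 19 at 34241090 to 34255590 (mm10, minus strand, protein coding). Its level was 418.7 and 437.5 CPM in the shNT libraries and 1250.3 and 1138.1 CPM in the shNr4a3 libraries. Both knockdown libraries stood far above both controls, and the ratio of the group means was 2.79. The group values were 428 ± 13.4 and 1194 ± 79.4 CPM (mean ± SD, n = 2 each). The fitted log2 fold change was 1.48, with a standard error (SE) of 0.08 and an edgeR adjusted p of 6.93e-07. By size of change Acta2 ranked 1715 of 10736 tested genes. It took 0.0424% and 0.0439% of the counts summed over the 16383 genes under shNT and 0.124% and 0.113% under shNr4a3.

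The stretch before the Acta2 start site is shown because it carries the SRF elements through which the gene is classically studied. Promoter windows were the 250 bases upstream of RefSeq start sites (GRCm38.p6), with the strand of the gene. They were searched for the CArG box, a run of 10 bases that opens with CC, closes with GG and has only A or T between. A CArG-like run has exactly 1 G or C among the 6 inner bases, so that no run counts as both. Either run reads as the same kind on both strands. The Acta2 window, chr19:34255374-34255623 on the minus strand, held no CArG box and 2 CArG-like runs, in capitals, whose first bases lie at -84 and -34 from the start.
Acta2: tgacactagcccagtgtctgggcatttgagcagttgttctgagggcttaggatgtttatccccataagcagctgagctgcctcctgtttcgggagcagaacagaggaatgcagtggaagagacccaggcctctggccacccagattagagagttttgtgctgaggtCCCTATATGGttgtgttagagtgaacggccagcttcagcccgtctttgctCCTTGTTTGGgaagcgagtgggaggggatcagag
At least 2 CArG-like runs were found in 0.548% of 32851 windows, at least 1 in 7.24% and a CArG box in 1.47%.

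The rise of Acta2 came with a change in which actin genes supplied the counts. Among the 4 actin genes of the table, Actb and Actg1 encode the cytoplasmic beta- and gamma-actins of every cell, and Actc1 encodes cardiac alpha-actin. Actg1 went from 1093.5 and 1154.5 CPM under shNT to 242.0 and 189.6 CPM under shNr4a3, so it fell by 2.38 on the log2 scale (SE 0.12, edgeR adjusted p = 3.20e-07). Actc1 went from 3.68 and 2.95 CPM to 41.0 and 45.5 CPM (log2 fold change 3.71). Actb had 1313.4 and 1351.2 CPM under shNT and 1196.7 and 1098.8 CPM under shNr4a3 (log2 fold change -0.22, edgeR adjusted p = 0.0374). That call was lost without shNT replicate 1 (adjusted p = 0.144) or replicate 2 (0.246), in a range of 0.00278 to 0.246 over the 12 fits tried with edgeR, DESeq2 and limma.

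Divided by gene length, so that genes can be compared, Acta2 held 20.6% and 20.7% of the actin counts in the shNT libraries and 55.5% and 55.6% in the shNr4a3 libraries. It stood behind Actb and Actg1 in the controls and ahead of both in the knockdown. The share of Actg1 was 36.1% and 36.6% under shNT against 7.20% and 6.21% under shNr4a3. Actb held 42.8% ± 0.371 and 35.5% ± 0.282, and Actc1 0.176% ± 0.0326 and 2.23% ± 0.315 (SD, n = 2 each). The sum over the 4 genes, as RPKM (CPM per kilobase of gene length), was 1139.0 and 1186.2 under shNT and 1265.1 and 1148.7 under shNr4a3, so the summed levels overlapped while the shares did not. The shares and the sum depend on the deposited length of Acta2, 1781 bases, where GENCODE M21 has 2196 exonic bases. By counts not divided by length, Acta2 held 14.8% and 14.85% under shNT and 45.8% and 46.0% under shNr4a3. With 2 against 2 libraries an exact two-sided permutation test cannot go below p = 0.33. That is the value for the share of each of the 4 genes. The skeletal and enteric actin genes Acta1 and Actg2 were not analysed here, and actin exons are similar enough that some reads may have been counted for another isoform.

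**Figure D2:**
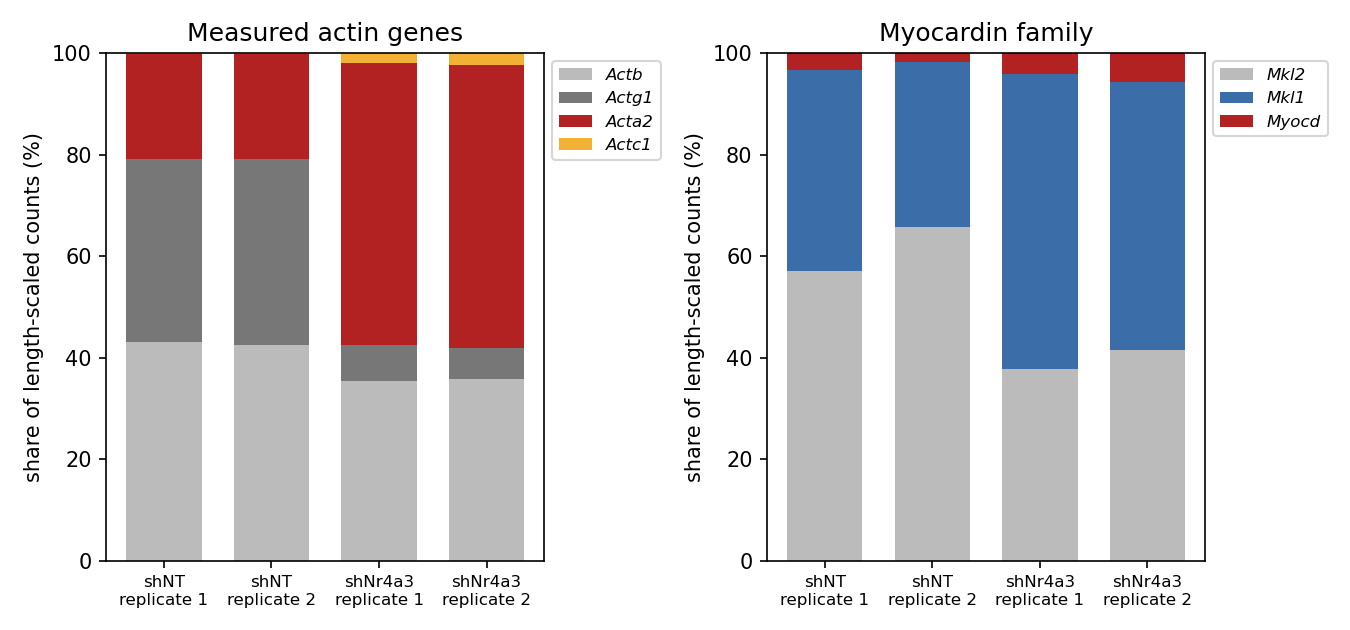
Share of length-scaled counts (%, bars adding to 100%) held by each measured actin gene (left) and each myocardin family gene (right), per library. Acta2 takes 20.6% to 20.7% of the actin bar under shNT and 55.5% to 55.6% under shNr4a3, where Actg1 shrinks to between 6.21% and 7.20%.

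Transcripts for proteins that decorate or cap the actin filament went in different directions. Cald1 encodes caldesmon, which binds actin, myosin and tropomyosin and restrains contraction. It lies on chromosome 6 at 34598500 to 34775473 (plus strand). Its level was 16919.8 and 17312.3 CPM under shNT and 11372.0 and 12169.7 CPM under shNr4a3. Among the 16383 genes counted, it had the most counts in both shNT libraries, with 1.71% and 1.74% of the counts summed over these genes. It held rank 3 and rank 2 in the shNr4a3 libraries, with 1.13% and 1.21%. It fell by 0.54 on the log2 scale (SE 0.08, edgeR adjusted p = 0.000249). Tropomyosin genes, whose coiled-coil products lie along the same filament, were lower too. Tpm3 fell from 2018.8 and 2028.2 to 835.5 and 765.3 CPM, and Tpm2 from 1162.7 and 1060.3 to 670.6 and 586.6 CPM (log2 fold changes -1.34 and -0.82). Tpm1 and Tpm4 were not analysed here.

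Lmod1 encodes leiomodin 1, which starts new actin filaments in smooth muscle (chromosome 1, 135324807 to 135368065, plus strand). It was at 49.7 and 54.1 CPM in the controls and 83.7 and 87.5 CPM in the knockdown libraries, with no overlap. The log2 fold change was 0.72 (SE 0.09, edgeR adjusted p = 0.000105). Smtn encodes smoothelin, a protein of the actin filaments of contractile smooth muscle (chromosome 11, 3517523 to 3540612, minus strand). It had 97.6 and 100.6 CPM under shNT and 83.4 and 85.7 CPM under shNr4a3. This was the smallest change called among the 10 genes (log2 fold change -0.23, SE 0.08, edgeR adjusted p = 0.0316). It did not pass without shNT replicate 1 (-0.27, adjusted p = 0.12) or replicate 2 (-0.21, adjusted p = 0.222), and the edgeR, DESeq2 and limma fits spanned 0.0165 to 0.222. Exons of Smtn share 714 bases with Gm11946 and 39 with Gm11947 on the opposite strand, and the sources used here do not give the strand setting of the counting. Its relative Smtnl2 was scarce (38 and 10 counts, then 90 and 60) and was called higher at an edgeR adjusted p of 0.039. Its log2 fold change of 1.58 became 2.88 without shNT replicate 1 (adjusted p = 0.00175). Without shNT replicate 2 it did not pass (0.89, adjusted p = 0.15), nor without shNr4a3 replicate 1 (1.25, adjusted p = 0.148), in a range of 0.00175 to 0.15.

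Among the genes for adaptor proteins of stress fibres, Synpo2 had the largest change of the 10 genes. It encodes synaptopodin 2, also called myopodin, which binds and bundles actin at Z-discs and stress fibres (chromosome 3, 123076519 to 123236149, minus strand). Its level was 42.9 and 69.6 CPM under shNT and 191.5 and 219.3 CPM under shNr4a3. The controls differed from each other more than for most of the 10 genes (coefficient of variation 33.6%), but both lay well below the knockdown libraries. The log2 fold change was 1.87 (SE 0.19, edgeR adjusted p = 2.86e-05). Its paralogues rose too. Synpo, the founding member known from kidney podocytes and dendritic spines, went from 194 ± 14.9 to 828 ± 37.1 CPM (log2 fold change 2.10). Synpo2l, which is found in heart and skeletal muscle, went from 92.8 ± 15.8 to 378 ± 9.45 CPM (log2 fold change 2.03).

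Csrp1 encodes cysteine and glycine-rich protein 1, a LIM-domain protein that binds alpha-actinin and zyxin (chromosome 1, 135720061 to 135752232, plus strand). It had 109.7 and 123.3 CPM under shNT and 72.6 and 66.4 CPM under shNr4a3, with no overlap. It fell by 0.75 on the log2 scale (SE 0.09, edgeR adjusted p = 0.000112). Its close relative Csrp2, which marks smooth muscle and is also used by fibroblasts, moved the other way. Csrp2 went from 18.6 and 14.4 to 313.6 and 284.3 CPM. That was a rise of 4.18 on the log2 scale (SE 0.13, edgeR adjusted p = 3.85e-08), the largest rise among the stress fibre and adhesion genes listed. Per length, Csrp1 supplied 74.6% and 81.0% of the summed level of the pair under shNT and 10.3% and 10.4% under shNr4a3. The summed level of the pair was 75.2 and 77.9 RPKM in the controls and 359.4 and 326.1 RPKM in the knockdown. These values depend on the deposited length of Csrp2, 973 bases, where GENCODE M21 has 2171 exonic bases. By counts not divided by length, Csrp1 supplied 85.5% and 89.5% under shNT and 18.8% and 18.9% under shNr4a3.

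Pdlim7 encodes enigma, a PDZ and LIM protein that links kinases and tropomyosin to actin fibres (chromosome 13, 55495795 to 55513676, minus strand). It went from 72.2 and 80.5 CPM to 109.7 and 111.4 CPM, with no overlap. It rose by 0.53 on the log2 scale (SE 0.09, edgeR adjusted p = 0.000580). Most measured relatives of this family were also higher. Log2 fold changes were 1.01 for Pdlim1, 0.45 for Pdlim5 and 1.19 for Ldb3, which encodes the Z-disc protein cypher. Pdlim2 fell from 101.4 and 100.3 to 50.2 and 39.8 CPM (log2 fold change -1.16), and Pdlim4 was too scarce to be tested.

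Vcl encodes vinculin, which couples integrin-bound talin to actin at focal adhesions (chromosome 14, 20929398 to 21033676, plus strand). Its level was 313.7 and 334.6 CPM under shNT and 300.3 and 343.7 CPM under shNr4a3. Here the knockdown values enclosed the control values. The log2 fold change was -0.01 (SE 0.09, edgeR adjusted p = 0.932), and 0.922% of tested genes had a change of this size or smaller. The talin gene Tln1 did not pass either (log2 fold change -0.08, adjusted p = 0.591), whereas Actn1, which encodes the cross-linker alpha-actinin 1, rose by 1.01. Exons of Vcl share 2090 bases with Ap3m1 on the opposite strand in GENCODE M21.

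**Figure D3:**
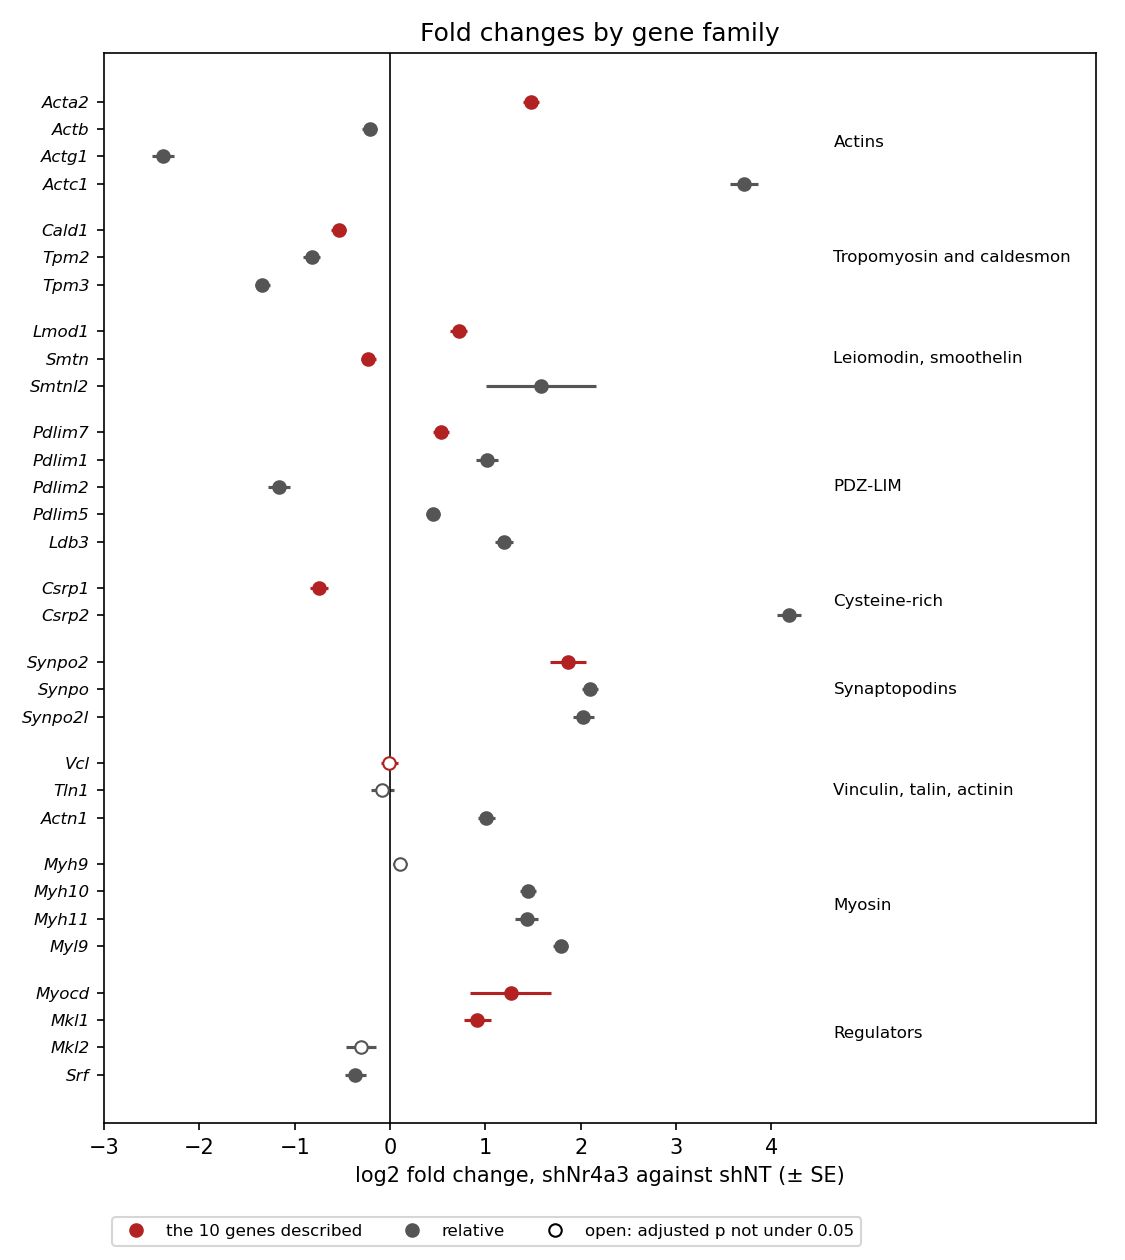
Log2 fold changes, shNr4a3 against shNT, with bars of 1 SE, for the 10 genes described (red) and relatives of the same families (grey); open points did not pass at an adjusted p of 0.05. Relatives lie on opposite sides of 0 for the actins, the cysteine-rich proteins and the PDZ-LIM genes, while the 3 synaptopodin genes lie together between 1.87 and 2.10.

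Of the coactivators, Mkl1 carried the firmer change. Mkl1, now named Mrtfa, encodes myocardin-related transcription factor A, the actin-sensing partner of SRF in most cells (chromosome 15, 81012281 to 81190757, minus strand). It was at 23.2 and 18.4 CPM under shNT and 35.7 and 42.7 CPM under shNr4a3, with no overlap. It rose by 0.92 on the log2 scale (SE 0.14, edgeR adjusted p = 0.000414). Myocd encodes myocardin, the cardiac and smooth muscle member of the family (chromosome 11, 65176561 to 65269989, minus strand). It was scarce, with 60 and 32 counts under shNT and 79 and 151 under shNr4a3, or 2.10, 1.05, 2.62 and 4.92 CPM. The groups did not overlap, but the coefficient of variation was 47.3% and 43.2%, and the gap between groups was narrower than that between replicates. The log2 fold change was 1.26 (SE 0.43, edgeR adjusted p = 0.0291). It did not pass without shNT replicate 2 (0.84, adjusted p = 0.127) or without shNr4a3 replicate 2 (0.73, adjusted p = 0.24), in a range of 0.00368 to 0.24 over the fits.

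Mkl2 and Srf were not called higher. Mkl2, which encodes MRTF-B, had 49.1 and 54.3 CPM under shNT and 34.1 and 49.4 CPM under shNr4a3, with overlapping groups (log2 fold change -0.31, edgeR adjusted p = 0.12). It was called lower without shNr4a3 replicate 2 (log2 fold change -0.61, adjusted p = 0.000225) and stood at an adjusted p of 0.000225 to 0.634 over the fits. Srf fell from 37.6 and 40.8 to 28.1 and 32.7 CPM, by 0.37 on the log2 scale (SE 0.11, edgeR adjusted p = 0.0176). That call was lost without shNT replicate 2 (adjusted p = 0.126) or shNr4a3 replicate 1 (0.0613), in a range of 0.00212 to 0.126. Per length, Mkl1 supplied 39.6% and 32.6% of the summed level of the 3 family genes under shNT and 58.2% and 52.7% under shNr4a3. Mkl2 supplied 57.0% and 65.6%, then 37.8% and 41.5%, and Myocd between 1.77% and 5.78% in every library. The order of Mkl1 and Mkl2 was thus opposite in the groups when lengths were taken into account. By counts not divided by length, Mkl1 supplied 31.2% and 24.9% under shNT and 49.3% and 44.0% under shNr4a3. Mkl2 then supplied 66.0% and 73.7% under shNT and 47.05% and 50.9% under shNr4a3. By that measure Mkl1 led in shNr4a3 replicate 1 only. The exact permutation p was 0.33 for each share, the smallest that 2 against 2 libraries allow.

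Promoter windows of the same search are printed to set the elements beside the expression values. RefSeq windows were matched for 9 of the 10 genes, all but Myocd. Vcl alone among them held a CArG box, Acta2 and Mkl1 held CArG-like runs, and 6 held neither. Each line gives 40 bases with the run in capitals, from Vcl (chr14:20929156-20929195, plus strand), Mkl1 (chr15:81190836-81190875, minus), Actg1 (chr11:120348561-120348600, minus), Actc1 (chr2:114052898-114052937, minus), Srf (chr17:46556220-46556259, minus) and Myl9 (chr2:156775288-156775327, plus).
Vcl: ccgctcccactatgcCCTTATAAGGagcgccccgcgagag
Mkl1: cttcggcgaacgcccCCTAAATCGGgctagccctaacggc
Actg1: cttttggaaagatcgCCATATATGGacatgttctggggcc
Actc1: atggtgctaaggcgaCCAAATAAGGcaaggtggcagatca
Srf: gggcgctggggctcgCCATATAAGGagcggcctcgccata
Myl9: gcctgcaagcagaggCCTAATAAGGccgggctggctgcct
The run of Mkl1 is CArG-like and the others are CArG boxes. Only 1 run per gene is marked. The full windows held 1 CArG box and 3 CArG-like runs for Actc1, 2 CArG boxes for Srf, and 1 of each kind for Myl9. Genes with a CArG box in these windows had log2 fold changes of -2.38 (Actg1), -0.37 (Srf), -0.01 (Vcl), 0.55 (Cnn2, a calponin gene), 1.79 (Myl9) and 3.71 (Actc1), so that both directions occurred among them. The 10 other genes looked up (Actb, Actc1, Actg1, Cnn2, Mkl2, Myh11, Myl9, Mylk, Srf and Tpm2) were picked with values known. No window was matched for Actb or Myh11, so neither gene was searched for these runs. A run found is a string of letters, not a measured site.

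The order of the 10 genes by level per length was nearly kept between groups. In shNT the mean levels were 1421 RPKM for Cald1, 240 for Acta2, 62.0 for Vcl, 59.6 for Csrp1, 22.6 for Smtn, 15.7 for Pdlim7, 13.2 for Lmod1, 4.28 for Synpo2, 3.40 for Mkl1 and 0.245 for Myocd. Vcl and Csrp1 overlapped there (60.0 and 64.0 against 56.1 and 63.1 RPKM), as did Synpo2 and Mkl1 (3.27 and 5.30 against 3.80 and 3.00 RPKM). In shNr4a3, Cald1 (978 RPKM) and Acta2 (671) again led, and Smtn went from rank 5 to rank 7, behind Pdlim7 (22.8) and Lmod1 (21.7). In the whole table, Acta2 ranked 181 and 174 by RPKM in the shNT libraries and 37 in both shNr4a3 libraries. For Acta2, Synpo2 and Vcl the deposited length differs from that of GENCODE M21. That touches their place in this order, and for Acta2 also the actin shares and sum, but no fold change.

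Genes of the wider contractile lists were called in both directions. The smooth muscle contractile list had 23 tested genes, with 4 of the 10 among them, of which 12 rose, 6 fell and 5 did not pass (median log2 fold change 0.29). Besides the genes above, the muscle intermediate filament gene Des rose by 2.44, the regulatory light chain Myl9 by 1.79 and the smooth muscle myosin heavy chain Myh11 by 1.43, and the mesenchymal filament gene Vim fell by 0.75. Of the non-muscle myosins, Myh10 rose from 702 ± 15.5 to 1912 ± 120 CPM (log2 fold change 1.45), while Myh9 had 7978 ± 316 and 8581 ± 378 CPM and did not pass (log2 fold change 0.11, edgeR adjusted p = 0.266). Myl9 went from 57.8 and 61.6 to 209.6 and 203.1 CPM. Tagln and Cnn1, which belong to the smooth muscle contractile list and to the SRF and MRTF target list, were not analysed here. Among 37 stress fibre and focal adhesion genes in the test, also with 4 of the 10, 18 were called higher, 12 lower and 7 neither (median 0.24). The Ena/VASP family gene Evl rose by 2.06, and the adhesion genes Lims1 and Fhl3 fell by 1.26 and 1.10.

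Among 30 SRF and MRTF targets, with 7 of the 10, 14 were called higher, 10 lower and 6 neither (median 0.28). Tuft1 rose by 2.07, and the immediate early targets Egr1 and Egr2 fell by 1.68 and 1.61. The share of genes called was 78.3% and 81.1% in the contractile and stress fibre lists, beside 60.2% of all tested genes.

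**Figure D4:**
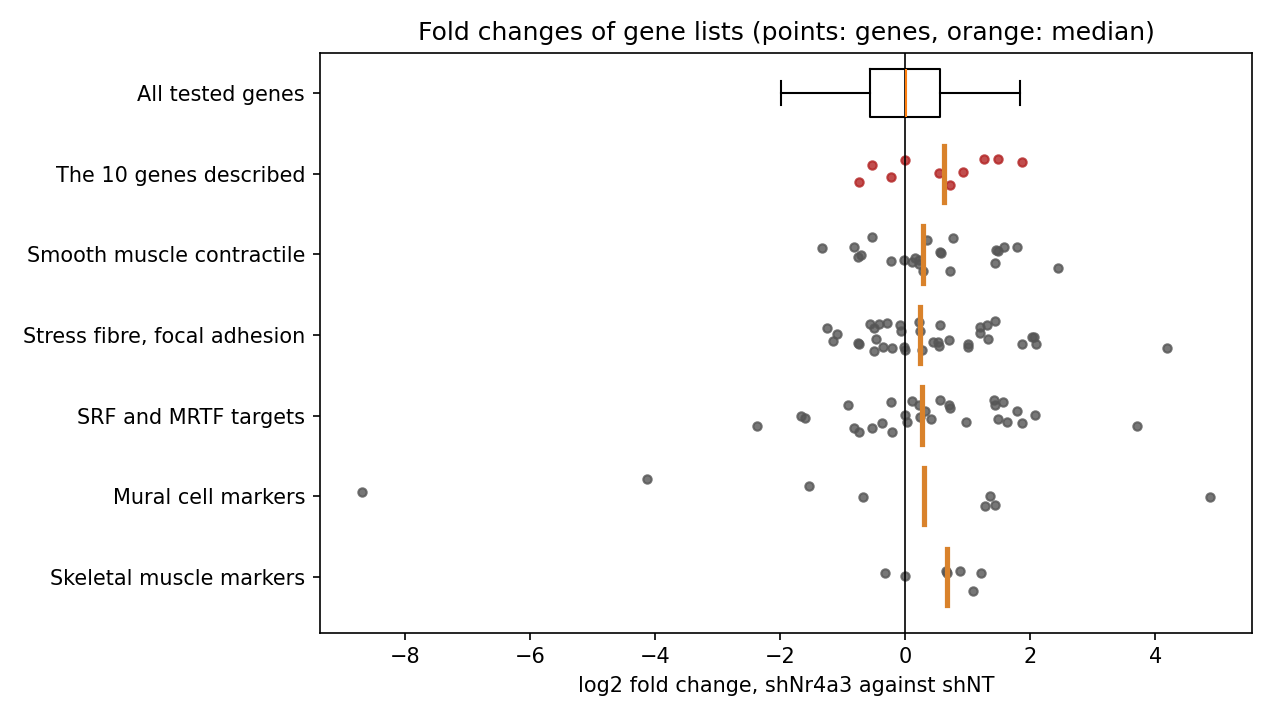
Log2 fold changes of each tested gene (points) with the median (orange line) for the 10 genes and 5 gene lists, above which a box for all tested genes shows the quartiles (-0.565 and 0.553) with whiskers at the 5th and 95th percentile (-1.99 and 1.83). Each list shown spreads to both sides of 0, with medians between 0.24 and 0.67; the leftmost point is the mural gene Ndufa4l2, whose fitted value is no bound because both knockdown libraries held 0 counts.

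Markers of other cells that use these genes were read from the same libraries. Of the 8 mural cell markers in the test (10 in the table), 4 were called higher, 3 lower and 1 neither (median log2 fold change 0.30), and the summed level of the list was 221 to 225 CPM under shNT and 443 to 462 CPM under shNr4a3. Rgs4 made up most of the difference (7.42 and 6.64 CPM, then 208.6 and 204.8 CPM), and the pericyte genes Rgs5 and Notch3 rose by 1.35 and 1.27. Pdgfrb fell by 0.67, Cox4i2 fell from 87 and 88 counts to 9 and 1, Ndufa4l2 fell from 44 and 58 counts to 0 in both knockdown libraries, and Higd1b was at 0 in 3 of the 4 libraries. Of the 7 skeletal muscle markers in the test (12 in the table), 3 rose (Myh1, Myh2 and Ttn) and 4 did not pass. The summed level was 362 to 384 CPM under shNT and 717 to 835 CPM under shNr4a3, mostly from Myh1 and Ttn. Myh1 had 200.4 and 184.8 CPM under shNT and 441.7 and 447.9 CPM under shNr4a3. Ttn had 168.0 and 162.3 CPM, then 244.3 and 358.6 CPM. The regulators Myf5 and Myf6 were at 0 in every library. Of 12 fibroblast markers, 3 rose and 7 fell, with log2 fold changes of -3.35 for Tcf21, -2.26 for Pdgfra and 3.53 for Postn. Macrophage markers summed to 182 to 232 CPM and then 158 to 163 CPM (6 of 11 fell). Endothelial markers summed to 319 to 352 CPM and then 225 to 234 CPM. Of these, 2 of 8 rose (Emcn and Kdr) and 2 fell (Eng and Tek), with a median log2 fold change of 0.295. Eng made up most of the fall in the sum (209.8 and 227.2 CPM, then 125.0 and 108.5 CPM). The share of genes called was 42.9% to 54.5% in the skeletal muscle, endothelial and macrophage lists. It was 83.3% and 87.5% in the fibroblast and mural lists, beside 60.2% of all tested genes. The part of any of these cell types in the contractile gene values was not tested.

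The genes whose pattern over the 4 libraries was closest to that of Acta2 came from outside these lists. Closeness was the Euclidean distance of centred log2(CPM + 0.5) over the 4 libraries, among 6896 genes with a mean of at least 10 CPM. The nearest were Gm28539 (distance 0.0182), Dpp3 (0.0189), Wsb2 (0.0409), Gm37388 and Gm37013 (both 0.0412), with log2 fold changes of 1.49 to 1.52. Dpp3, a dipeptidyl peptidase gene, had 41.4 and 43.9 CPM under shNT and 124.4 and 114.3 CPM under shNr4a3. Gm37388 and Gm37013 had the same CPM in every library. With 4 libraries in 2 groups, closeness reflects little more than a like fold change and a like order of replicates.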

How the data were processed

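The deposited table gives whole-number read counts for each gene, not normalized, with a column per library and the exonic length of the gene. Per the submitters' processing notes, the tools were Trimmomatic 0.36, SAMtools and featureCounts of Subread 1.5.1, with build mm10. The sources used here name no aligner, strand setting or annotation release. Per the labels' protocols, RNA was depleted of ribosomal RNA and made into stranded libraries, although the molecule label reads polyA RNA. The table used here covers chromosomes 10 to 19, 1 to 5 and part of 6, and its totals are sums over these genes, not sequencing depth. Exon coordinates in the table end at 255 characters for 5390 genes, so positions and overlaps were taken from GENCODE M21 (GRCm38). Exonic lengths were equal for 7 of the 10 genes.

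Counts were tested with edgeR 4.0.16 (R 4.3.3; glmQLFit and glmQLFTest, TMM scaling, filterByExpr, hairpin as the only term) over the whole table, and the SE is the log2 fold change divided by the square root of F. RPKM is CPM per kilobase of deposited length. On simulated counts with 200 changed genes among 10674 tested for this comparison, 92.9% of log2 changes of 1 and 42.0% of 0.5 were recovered. All 4 libraries were kept. Over genes with at least 10 counts, chi-square per degree of freedom between replicates was 10.6 (shNT) and 22.1 (shNr4a3). Counting error alone is smaller than this spread.

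Results of 1 list of upstream genes are not reported here, for a reason unrelated to its values, so the lists printed are not all the lists examined. The 10 genes and all lists were chosen with earlier results of these data known. Named beside the 10 genes are, per list, up to 3 genes with the largest rise and 3 with the largest fall among those called, with Srf, Mkl2, the actin genes, Nr4a3, Mef2c, Gata4 and Tbx5. Relatives of the 10 genes (Synpo2l, the Pdlim genes, Ldb3, Tln1, Actn1, Myh9, Myh10) and Notch3, Higd1b, Myf5 and Myf6 were named after their values were seen. Alternatives were DESeq2 1.42.0, limma-voom 3.58.1, other scalings, no filter, a replicate block and leaving out each library.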

Additional observations from a re-analysis of the deposited data

How the results depend on the processing

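The counts of 6 higher and 3 lower genes stayed within 1.5 times under all 11 alternatives, as did those of the gene lists and of all tested genes (3300 higher and 3158 lower). No scaling changed the direction of any of the 10 genes. Leaving out shNT replicate 2 or shNr4a3 replicate 1 turned the log2 fold change of Vcl to 0.0361 and 0.0881, neither called, within a leave-one-out range of -0.121 to 0.0881. The calls of Smtn and Myocd were each lost on leaving out either of 2 libraries, as given beside their values. The difference in the Acta2 share of the actin counts was 34.9 percentage points, and 31.1 when counts were not divided by gene length. Where a library was left out, the lone sample of its group was assumed to vary like the others.

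Replicate numbers are shared between the groups, and deviations of same-numbered libraries were nearly uncorrelated (r = 0.04 across genes). With 2 libraries per group this cannot decide whether the numbers pair the libraries. With the replicate block, 6659 genes were called instead of 6458, the calls of the 10 genes did not change, and Mkl2 passed as lower (log2 fold change -0.33, edgeR adjusted p = 0.016). With 2 libraries per group, changes near the size of that of Smtn are at the edge of what the test can call.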
